A study of Mus musculus with 4 samples.

Results

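The 10 genes described here encode the CD3 chains (CD3D, CD3E, CD3G and CD247) and the constant regions of the T cell receptor (TRAC, TRBC1, TRBC2, TRDC, TRGC1 and TRGC2). They were taken by symbol from the 36601 human genes of the deposited feature lists, and all 10 were present in both reactions. The values are UMI counts, that is, counts of distinct captured RNA molecules, in human CD45+ cells sorted from MDA-MB-231 breast carcinoma tumors. The tumors grew in MISTRG mice, an immunodeficient strain that carries human cytokine genes and had been engrafted with fetal CD34+ hematopoietic stem cells, so human lymphocytes and myeloid cells developed in a mouse host. Cells of 7 untreated mice and of 7 mice given the drug maraviroc in the drinking water were marked with hashtag antibodies and loaded in 2 droplet reactions, with 4 untreated and 3 treated mice in reaction 1 and 3 untreated and 4 treated mice in reaction 2. Both arms carried the same engraftment and the same tumor line. Treatment was read from the hashtag names in the feature lists. The mice were irradiated and engrafted as newborn pups, and their age at tumor injection was not given in the sources used here.

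On T cells, the antigen receptor is a pair of chains, alpha with beta or gamma with delta, that binds antigen but cannot signal alone. CD3D, CD3E and CD3G pair with each other and CD247 (CD3 zeta) forms a homodimer, and these chains carry the signaling motifs that LCK phosphorylates and ZAP70 then binds. A developing T cell uses either the TRBC1 or the TRBC2 constant gene for its productive beta chain, which makes the pair a measure of clonality in T cells. NK cells have no rearranged antigen receptor, but use CD247 as the signaling partner of CD16 and of the natural cytotoxicity receptors NKp46 (NCR1) and NKp30 (NCR3).

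The libraries differed in quality. Reaction 1 held 133089612 UMIs in 29120 barcodes and reaction 2 held 175447534 UMIs in 13582 barcodes, and 27645 and 10161 barcodes passed the limits of more than 600 and at most 6000 detected genes and under 1 in 8 mitochondrial UMIs. The median passing barcode had 2752 UMIs in reaction 1 and 10742 in reaction 2. Hashtags called 10174 passing barcodes of reaction 1 doublets and 11917 singlets, against 1961 and 7954 in reaction 2, and 105 passing barcode sequences occurred in both reactions. Cell classes came from clusters computed without the 10 genes and without any other T cell receptor segment, so these genes defined no class. NK-like cells additionally held a UMI of NCR1, KLRF1 or NCAM1. This gave 1604 and 2708 T-like cells, 670 and 517 NK-like cells, and 10385 and 4489 myeloid cells in reactions 1 and 2. These are not all lymphocytes of the tumors. The largest cluster, with 7053 and 284 barcodes, scored best for NK markers but stayed unnamed and was left out of these classes. Clusters named cycling, some with NK or T as the next best marker list, were left out too. Values by reaction include all barcodes, and values by mouse include hashtag singlets of classes with at least 10 cells in that mouse, namely 13 mice for T-like and 14 for NK-like and myeloid cells. With 1 library per reaction, reactions were not tested against each other.

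The classes were described by defining markers, which also took part in the clustering. CD2, CD5, CD6 and CD28 were in the list that named the T-like clusters, and C1QA in that for macrophages. The direction of these genes was thus partly set beforehand, and their values are no independent check of the labels. FOXP3 was at 141 and 148 counts per 1000000 UMIs (CPM) in T-like cells of reactions 1 and 2, against 0.9 and 2.4 CPM in NK-like cells. CD5, which marks T cells, was at 6.7 and 14.7 CPM in NK-like cells, against 64.6 and 85.7 CPM in T-like cells. CD28 was at 7.6 and 6.5 CPM against 115 and 159 CPM, but was also at 39.6 and 31.8 CPM in myeloid cells. Other T cell markers were less distinct. In NK-like against T-like cells, CD6 was at 17.1 and 34.6 against 75.8 and 107 CPM. CD2 was at 107 and 107 against 648 and 612 CPM, and CD8A at 43.6 and 38.9 against 87.4 and 77.5 CPM. Of the macrophage transcript C1QA, T-like cells held 250 and 146 CPM, NK-like cells 96.3 and 51.2 CPM, and myeloid cells 1282 and 1086 CPM; its part in the results was not tested.

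The CD3 chains separated T-like from NK-like cells by very different amounts. CD3D was at 801 CPM in T-like and 250 CPM in NK-like cells of reaction 1, and at 708 and 199 CPM in reaction 2. CD3G was at 371 against 40.0 CPM in reaction 1 and at 375 against 30.7 CPM in reaction 2. CD3E, in contrast, was at 291 against 239 CPM and at 251 against 201 CPM. NK-like cells thus held 82.2% and 80.0% of the T-like level of CD3E, 31.2% and 28.1% of that of CD3D, and 10.8% and 8.2% of that of CD3G. Hashtag singlets gave the same order, with 73.3% and 75.5% for CD3E, 26.7% and 26.0% for CD3D, and 8.4% and 7.3% for CD3G.

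CD247 was higher in NK-like than in T-like cells in all 13 mice that held both. It was at 369 CPM in T-like and 1040 CPM in NK-like cells of reaction 1, and at 558 and 1311 CPM in reaction 2. The mice ranged from 363 to 676 CPM in T-like cells (median 478) and from 995 to 1702 CPM in NK-like cells (median 1142), without overlap. Listed receptors and signaling adaptors of NK cells were also higher there in hashtag singlets. All 6 that were tested (NCR1, NCR3, FCGR3A, FCER1G, TYROBP and HCST) were lower in T-like cells by edgeR over 13 mice. The differences were 1.03 (HCST) to 4.01 (NCR1) on the log2 scale, where 18.8% of the 7557 genes tested were lower. With all barcodes FCGR3A differed less, at 109 and 77.7 CPM in T-like and 114 and 90.6 CPM in NK-like cells. Against myeloid cells, 3 of the 6 were higher and 3 lower in NK-like cells by edgeR. NCR1, FCGR3A and TYROBP were in the marker list that named the NK-like cluster, and NCR1 also chose the cells within it. The direction of these genes was thus partly set beforehand.

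**Figure D1:**
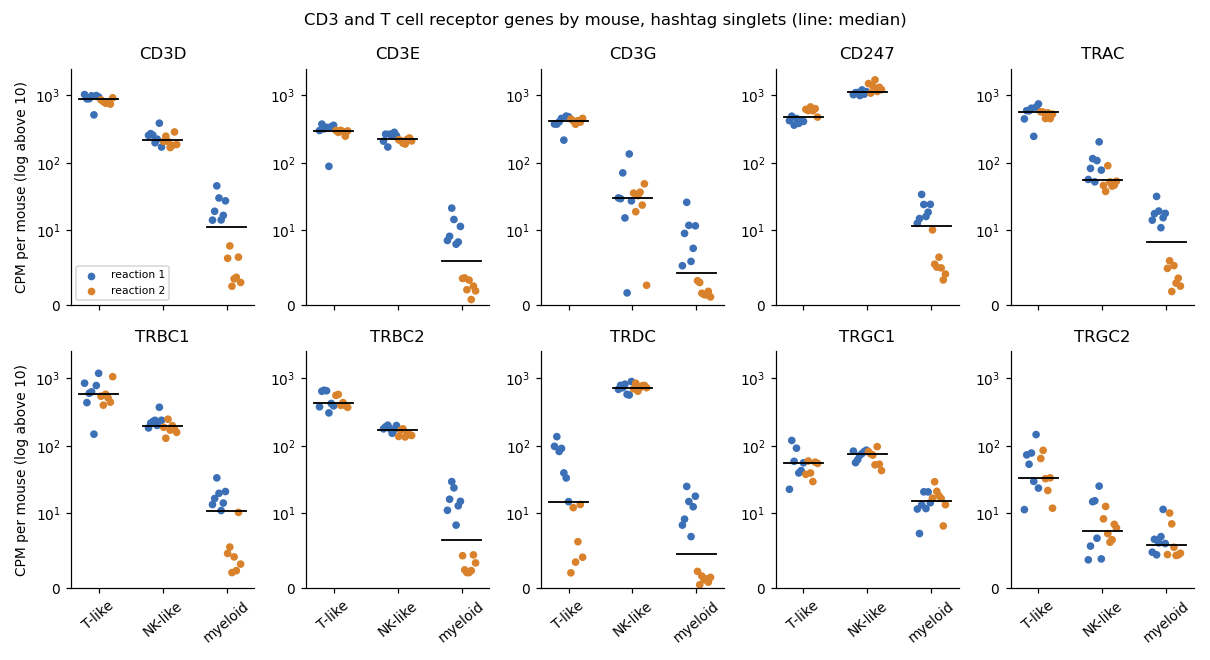
CPM of each of the 10 genes (y axis, logarithmic above 10 and linear below) in T-like, NK-like and myeloid hashtag singlets, 1 point per mouse, colored by reaction, with the median as a line. TRDC and CD247 were higher in NK-like than in T-like cells of every mouse, CD3E overlapped between them, and CD3G was near the myeloid level in some NK-like samples.

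TRDC, the delta constant gene, showed the opposite distribution to TRAC. In NK-like cells TRDC was at 718 and 710 CPM, against 61.9 and 9.7 CPM in T-like cells and 24.4 and 2.5 CPM in myeloid cells. Across mice, NK-like cells ranged from 565 to 896 CPM (median 726) and T-like cells from 2.1 to 136 CPM (median 14.8). The lowest NK-like sample was therefore above the highest T-like sample. In reaction 1 the T-like level was below that of B-like cells (94.0 CPM) and of carcinoma-like cells (64.3 CPM). In reaction 2 it was below that of B-like cells (11.4 CPM), so with all barcodes it was not above the B-like background in either reaction. In hashtag singlets the B-like mice had a median of 6.6 CPM and ranged from 0 to 76.0 CPM, which overlaps the T-like range. No TRDC UMI was counted in the 113 carcinoma-like cells of reaction 2.

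At equal depth, each cell was thinned to 1000 UMIs, which left out 10 and 0 shallower NK-like, 56 and 12 T-like and 378 and 3 myeloid cells. Then 47.7% and 50.1% of NK-like cells held a TRDC UMI, against 5.2% and 0.7% of T-like and 3.8% and 0.2% of myeloid cells. Without thinning the NK-like shares were 86.3% and 94.2%, at median depths of 5870 and 7298 UMIs, and the myeloid shares 8.8% and 1.5%, at 2968 and 12542 UMIs. The delta transcripts in NK-like cells came with almost no delta variable sequence. The 3 TRDV genes summed to 5 and 2 UMIs in all NK-like cells of reactions 1 and 2, that is 1.1 CPM (exact Poisson 95% interval 0.36 to 2.6) and 0.48 CPM (0.059 to 1.7), an interval that covers counting error only. Of 361 and 383 NK-like singlets with 2 or more TRDC UMIs, 0 and 1 held a TRDV UMI. In T-like cells the TRDV genes were at 1.7 CPM (0.95 to 2.8) and 0.83 CPM (0.50 to 1.3), which overlaps the NK-like intervals. Variable genes of the alpha chain were also low in T-like cells, where the 54 TRAV genes summed to 96.3 and 99.4 CPM, beside 547 and 459 CPM of TRAC. The library reads the RNA 3′ end, and variable segments are far from the tag. The part of this distance in the low variable counts was not tested.

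TRAC, the alpha constant gene, was at 91.4 CPM in NK-like cells of reaction 1 and 47.1 CPM in those of reaction 2. This was 16.7% and 10.3% of the T-like level. Its variable genes were at 3.1 and 1.4 CPM in NK-like cells, 4.7 and 1.2 CPM in myeloid cells and 96.3 and 99.4 CPM in T-like cells, so the NK-like level of TRAV did not exceed the myeloid one beyond counting error. NK-like mice ranged from 37.8 to 205 CPM of TRAC and T-like mice from 247 to 748 CPM, without overlap.

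TRBC1 and TRBC2, the beta constant genes, lay between these extremes. TRBC1 was at 633 and 495 CPM in T-like cells and at 219 and 165 CPM in NK-like cells. TRBC2 was at 466 and 404 CPM in T-like and at 175 and 146 CPM in NK-like cells. The NK-like levels were 34.6% and 33.3% of the T-like ones for TRBC1 and 37.5% and 36.2% for TRBC2. The 69 TRBV genes were at 58.4 and 55.5 CPM in T-like cells but only at 6.7 and 4.1 CPM in NK-like cells. This was above the myeloid level of 3.1 and 0.81 CPM beyond counting error, but not above the 7.3 and 4.9 CPM of B-like cells. The 2 constant genes are near-identical copies, as are TRGC1 and TRGC2, so reads that map to both may have been dropped or split during counting.

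The gamma constant genes differed from each other. TRGC1 was at 52.0 and 43.5 CPM in T-like cells and at 68.9 and 69.6 CPM in NK-like cells. TRGC2 was at 56.0 and 36.2 CPM in T-like cells but only at 11.5 and 8.5 CPM in NK-like cells, which is 20.4% and 23.3% of the T-like level and 1.5-fold and 1.3-fold the myeloid level. The 14 TRGV genes were at 38.6 and 37.9 CPM in NK-like cells and at 24.6 and 18.5 CPM in all T-like cells. T-like cells with CD8A or CD8B, however, held 50.4 and 52.0 CPM, more than NK-like cells. TRGC1 likewise had a median over mice of 137 CPM in these CD8 cells and 74.2 CPM in NK-like cells. The higher NK-like level thus held against the pooled T-like cells and not against CD8 cells. TRAV and TRBV were lower in NK-like than in T-like cells, while the few TRDV counts gave overlapping intervals.

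Several other classes gave a background for the NK-like values. Among myeloid, B-like and carcinoma-like cells of reaction 1, the myeloid level was the lowest except for TRGC1 and TRGC2. For these 2 genes the B-like level was lower. For CD3D, CD3E, CD3G, TRAC, TRBC1 and TRBC2 the myeloid level was between 5.8% and 7.5% of the T-like level in reaction 1 and between 1.4% and 2.1% in reaction 2, a near-constant ratio within each reaction. The NK-like level of the same 6 genes spread from 10.8% to 82.2% in reaction 1 and from 8.2% to 80.0% in reaction 2. The order of the genes was CD3E, TRBC2, TRBC1, CD3D, TRAC and CD3G in both reactions, but in hashtag singlets of reaction 2 TRBC1 (32.5%) and TRBC2 (32.3%) changed places. B-like cells, of which 42.2% and 32.8% of barcodes were hashtag doublets, gave a higher background for these 6 genes. They held 11.9% and 6.4% of the T-like level of CD3G and 17.6% and 9.8% of that of TRAC, and carcinoma-like cells of reaction 1 held 13.9% and 14.2%. The NK-like levels with all barcodes were 10.8% and 8.2% for CD3G and 16.7% and 10.3% for TRAC. They were therefore not above the B-like ones beyond counting error in either reaction. Hashtag singlets by mouse differed more in the median. CD3G had a median of 0 CPM in B-like cells, with 7 of 11 mice at 0, and 29.9 CPM in NK-like cells, with 0 of 14. The CD3G means over mice were closer, at 20.1 CPM in B-like and 36.5 CPM in NK-like cells. B-like singlets were few, 170 and 115 in reactions 1 and 2, against 455 and 429 NK-like singlets. The TRAC medians were 34.4 CPM in B-like and 55.2 CPM in NK-like cells, and the ranges overlapped for both genes. For TRGC2 the B-like level was 13.1% and 24.1%, against 20.4% and 23.3% in NK-like cells.

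**Figure D2:**
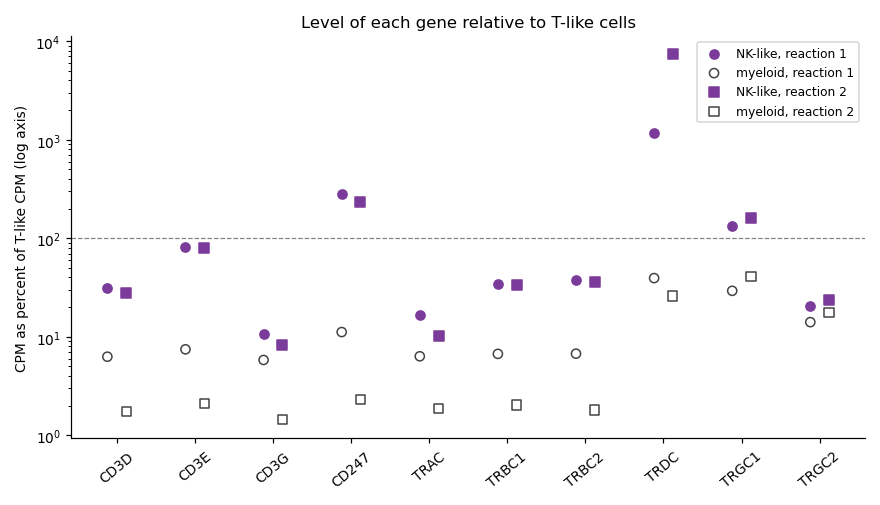
The level of each gene in NK-like (filled) and myeloid (open) cells as a percentage of its T-like level (y axis, logarithmic), with circles for reaction 1 and squares for reaction 2; the dashed line marks 100%. The NK-like points of TRDC, CD247 and TRGC1 lie above 100%, TRDC at 1160% and 7333%, and those of the other 7 genes run from 82.2% for CD3E down to 8.2% for CD3G, while the myeloid points of the CD3, TRAC and TRBC genes lie close together within a reaction.

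UMIs were summed for each mouse and class and tested with edgeR's quasi-likelihood test, with the mouse as a block and Benjamini-Hochberg adjustment over all genes tested. Between T-like and NK-like cells of 13 mice, 35.9% of the 7557 genes tested passed an adjusted p of 0.05 (17.1% higher and 18.8% lower in T-like cells), and all 9 of the 10 genes that passed the filter on low counts did so. TRGC2 did not pass the filter. Higher in T-like cells were CD3G, by 3.47 ± 0.19 (log2 difference ± SE), TRAC by 2.86 ± 0.17, CD3D by 1.84 ± 0.09, TRBC1 by 1.46 ± 0.14, TRBC2 by 1.46 ± 0.09 and CD3E by 0.36 ± 0.10. Lower in T-like cells were TRDC, with a log2 difference of -5.02 ± 0.40, CD247 with -1.30 ± 0.07 and TRGC1 with -0.50 ± 0.17. CD3E (adjusted p = 0.0079) was higher in T-like cells in 12 of 13 mice, and its ranges overlapped, from 89.0 to 376 CPM in T-like and from 172 to 284 CPM in NK-like cells. In reaction 1 alone neither CD3E (adjusted p = 0.19) nor TRGC1 (adjusted p = 0.59) passed edgeR's test. The mouse with the lowest CD3E had 16 T-like cells, and without it the CD3E difference was 0.42 and that of TRGC1 -0.49, both past the threshold.

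Between NK-like and myeloid cells of 14 mice, 75.2% of 10418 genes passed the same edgeR test, 36.2% being higher in NK-like cells, and 9 of the 10 genes were higher in NK-like cells. The differences ranged from 1.95 ± 0.13 for TRGC1 to 6.80 ± 0.37 for TRDC on the log2 scale, with 2.39 ± 0.36 for CD3G and 4.98 ± 0.25 for CD3E. TRGC2 differed by 0.34 ± 0.20 and did not pass (adjusted p = 0.14).

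Other genes of T cell receptor signaling divided between the classes in the same test. Of 48 listed genes 44 were tested between T-like and NK-like cells, of which 22 were higher and 10 lower in T-like cells, and the median difference was 0.29 beside -0.01 over all genes. Many of them took part in the clustering that made the classes. The 4 with the largest differences were CD28 (4.77 ± 0.22), the main costimulatory receptor, CTLA4 (4.27 ± 0.23), its inhibitory relative, ICOS (4.18 ± 0.14), a further costimulatory receptor, and TXK (-4.15 ± 0.16), a Tec family kinase that was higher in NK-like cells. Named for their roles next to the receptor, after their values had been seen, the kinase LCK was higher in T-like cells by 0.50 ± 0.09, the adaptor LAT by 1.47 ± 0.11, and ZAP70, which docks on phosphorylated CD3 and CD247, was lower by 0.71 on the log2 scale, with SE 0.09.

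Across 47 pairs of cluster and reaction, the genes whose log2 level followed the summed CD3D, CD3E and CD3G level most closely were TIGIT (Pearson's r = 0.98), LCK (0.97), BCL11B (0.96), IL32 (0.95) and SH2D1A (0.95), among 7554 genes. For TRDC they were CTSW (0.95), XCL1 (0.95), KLRC3 (0.94), XCL2 (0.94) and NCR1 (0.94), while TRDC followed CD3D at 0.57 and TRAC at 0.48. These points share libraries and differ in depth, so the coefficients are descriptions.

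TRBC1 and TRBC2 were then compared within single cells. Among T-like singlets with at least 4 UMIs of the pair, both genes were found in 62.8% of 594 cells in reaction 1 (exact binomial 95% interval 58.8 to 66.7%) and in 60.8% of 1631 cells in reaction 2 (58.4 to 63.2%). If every UMI were an independent draw from the pooled UMIs of that class, 96.8% and 96.4% of these cells would hold both. NK-like singlets held both in 81.7% of 153 cells (74.6 to 87.5%) and in 82.4% of 119 cells (74.3 to 88.7%), against 92.1% and 90.9% under the same independent draw. T-like cells therefore held 1 of the 2 genes alone more often than NK-like cells did. Over 11 mice with at least 10 such cells in each class, the share with both was 62.6% ± 6.3 (SD) in T-like and 81.5% ± 14.1 in NK-like cells, lower in T-like cells in 10 of 11 mice (exact sign-flip permutation test over mice, two-sided, p = 0.0117). This test was chosen after the shares by reaction had been seen. With at least 2 UMIs the shares were 56.9% ± 6.1 and 64.2% ± 5.7 over 12 mice (the same exact permutation test, p = 0.0298).

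**Figure D3:**
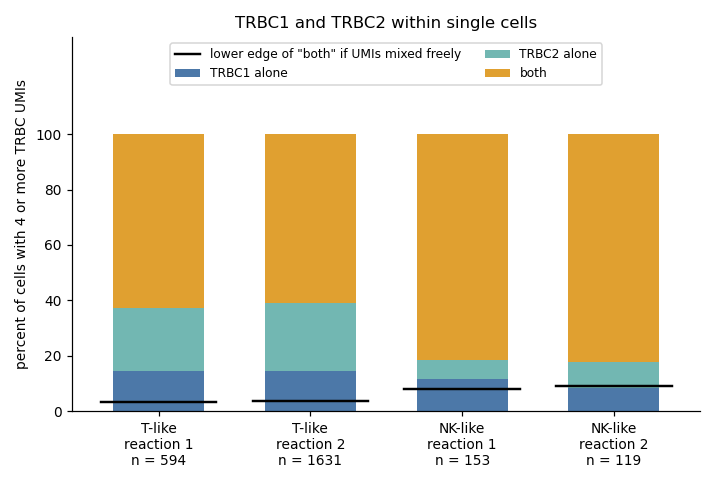
Percentage of hashtag singlets with 4 or more TRBC UMIs (y axis) that held TRBC1 alone, TRBC2 alone or both, for T-like and NK-like cells of each reaction; the black line marks where the lower edge of the both category would lie if UMIs were drawn independently. Both genes were found in 62.8% and 60.8% of T-like cells and in 81.7% and 82.4% of NK-like cells.

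TRBC1 alone was seen in 17.99% and 16.5% of T-like singlets with at least 2 UMIs of the pair, and TRBC2 alone in 23.8% and 28.1%. Over mice the share with TRBC1 alone ranged from 8.3% to 30.5% (median 18.9%). It was 16.4% ± 6.9 (SD, n = 7) in maraviroc-treated and 19.7% ± 7.0 (n = 5) in untreated mice, a difference of -3.28 percentage points that did not pass (exact permutation test, two-sided, p = 0.436, adjusted p = 0.653 over 6 comparisons). None of the 5 T-like subsets passed the exact sign-flip permutation test of this share against the other T-like cells of the same mice, with adjusted p of 0.653 to 0.992. Counting cells with at least 1 UMI of the pair, regulatory T cells (-6.37 percentage points) and cells with no subset gene (10.7 percentage points) passed the exact permutation test, both at adjusted p = 0.0249. A cell with 1 UMI of the pair can hold only 1 of the 2 genes, so at this setting the share moves with depth, and the median depths in reactions 1 and 2 were 5995 and 7424 UMIs in regulatory T cells and 1972 and 5050 UMIs in cells with no subset gene. With at least 2 UMIs the largest difference was 5.22 percentage points, in cells with no subset gene, of which 7 of 10 mice showed the direction.

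B-like cells held TRBC2 at a larger percentage of the T-like level than TRBC1. In reaction 2 TRBC2 was at 87.7 CPM in 180 B-like cells and TRBC1 at 36.0 CPM, which is 21.7% and 7.3% of the T-like levels, and of 50 B-like singlets with a TRBC UMI 46 held TRBC2 alone. In reaction 1 the B-like levels were 110 CPM of TRBC2 and 122 CPM of TRBC1, which is 23.6% and 19.3% of the T-like levels, and 25 of 66 such singlets held TRBC2 alone. No test was made between the reactions.

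Some myeloid cells carried gamma constant transcripts. Monocyte-like cells held TRGC1 at 25.2 CPM in reaction 1 and 36.6 CPM in reaction 2, and TRGC2 at 13.2 and 12.7 CPM. Macrophage-like cells held 7.4 and 4.2 CPM of TRGC1 and 3.7 and 1.8 CPM of TRGC2. In reaction 2 monocyte-like cells were below macrophage-like cells for the CD3 chains, TRAC and both TRBC genes (CD3D at 7.7 against 15.1 CPM), while TRGC1 was 36.6 against 4.2 CPM. The TRGV genes were at 3.8 and 1.2 CPM in all myeloid cells. CD3E stood out in 1 further population, an unnamed cluster whose best-scoring marker list was that of plasmacytoid dendritic cells, where it was at 41.1 CPM in reaction 2 beside 9.7 CPM of TRBC2.

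Within the T-like cells, 5 subsets were set by UMI gates in a fixed order, and the gates use none of the 10 genes. Cells with FOXP3, the regulatory T cell transcription factor, numbered 430 and 1036 in reactions 1 and 2. Cells with CD8A or CD8B numbered 339 and 729, CD8-negative cells with at least 2 UMIs of the B cell chemoattractant CXCL13 213 and 190, cells with TCF7 or LEF1, factors of naive and memory T cells, 146 and 360, and cells with no subset gene 476 and 393. The last group was shallower, with a median of 1972 UMIs in reaction 1 against 3758 in all T-like cells. Each subset was tested against the mean of the other subsets in 1 edgeR fit over 12 mice with the mouse as a block. Not every mouse held at least 10 cells of every subset. Regulatory T cells entered from 12 mice, CD8 cells and cells with no subset gene from 11, TCF7 or LEF1 cells from 10 and CXCL13 cells from 8.

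Regulatory T cells held more RNA of the alpha and beta constant genes and of CD3D, CD3E and CD3G than the mean of the other subsets, but not of CD247. Of the 6848 genes tested 36.9% passed in this subset (18.7% higher and 18.2% lower), and among the 10 genes 6 were higher and 2 lower. CD3E was higher by 0.66 ± 0.08 (log2 difference ± SE), TRBC1 by 0.60 ± 0.12, TRAC by 0.53 ± 0.11, TRBC2 by 0.53 ± 0.11, CD3D by 0.48 ± 0.08 and CD3G by 0.38 ± 0.06. For CD3E the mice ranged from 314 to 472 CPM in regulatory T cells (median 393), from 221 to 408 CPM in CD8 cells (median 277) and from 130 to 266 CPM in CXCL13 cells (median 192). CD3E was higher in regulatory T than in CD8 cells in 11 of 11 mice, and the regulatory T and CXCL13 ranges did not overlap. CD247 did not pass, at a log2 difference of -0.14 ± 0.10 (adjusted p = 0.31). TRAC lost the edgeR call in reaction 1 alone (adjusted p = 0.087) and with cells thinned to 1000 UMIs (0.066), and CD3G lost it with thinning (0.27). In the thinned test the gates were applied to the thinned counts, so the subsets changed in their cells as well as in depth. CD3D, CD3E, TRBC1 and TRBC2 passed under both and without the mouse block.

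TRGC1 and TRGC2 were highest in CD8 cells and nearly missing from regulatory T cells, with the other subsets between. TRGC1 was at 117 and 114 CPM in CD8 cells and at 10.6 and 10.4 CPM in regulatory T cells of reactions 1 and 2. TRGC2 was at 131 and 107 CPM in CD8 cells and at 9.4 and 6.2 CPM in regulatory T cells, close to the myeloid level of 7.9 and 6.3 CPM. Across mice, TRGC1 ranged from 76.8 to 283 CPM in CD8 cells and from 0 to 28.5 CPM in regulatory T cells, and TRGC2 from 36.8 to 299 CPM and from 0 to 13.4 CPM, without overlap for either gene. In CXCL13, TCF7 or LEF1 and no-subset-gene cells the TRGC1 medians were 26.8, 32.6 and 32.3 CPM, and those of TRGC2 34.8, 22.2 and 23.9 CPM. The medians were 137 and 132 CPM in CD8 cells and 5.6 and 2.2 CPM in regulatory T cells. Against the mean of the other subsets CD8 cells were higher by 2.43 ± 0.20 for TRGC1 and 2.77 ± 0.22 for TRGC2, and regulatory T cells had log2 differences of -2.93 ± 0.32 and -3.28 ± 0.37. Neither gene entered the test on thinned cells.

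The gamma variable genes moved with the constant genes, at 50.4 and 52.0 CPM in CD8 cells and 7.2 and 3.5 CPM in regulatory T cells. TRDC did not: it was at 45.2 and 9.4 CPM in CD8 cells, and the TRDV genes were at 3.2 and 0.87 CPM there. TRAC was found in 85.4% and 91.2% of CD8 singlets and a TRBC gene in 96.9% and 96.2%. At 1000 UMIs per cell a TRGC1 UMI was found in 10.4% and 10.4% of CD8 cells, 0.9% and 0.2% of regulatory T cells and 1.8% and 1.8% of myeloid cells.

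**Figure D4:**
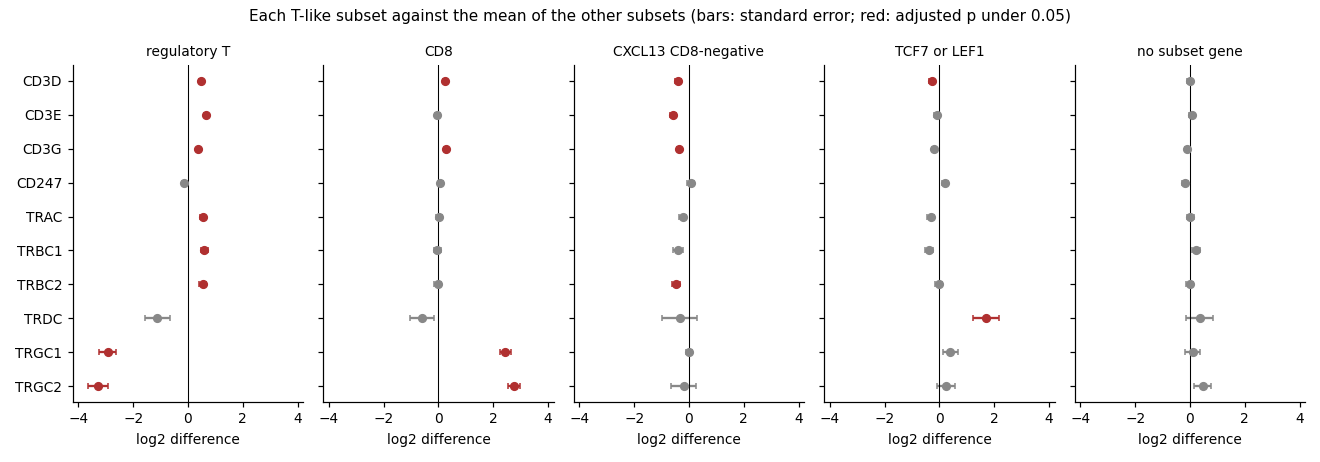
Log2 difference of each gene (x axis) between 1 T-like subset and the mean of the other subsets, with the standard error as bars and red for an adjusted p under 0.05 by edgeR. TRGC1 and TRGC2 lie at 2.43 and 2.77 in CD8 cells and at -2.93 and -3.28 in regulatory T cells, while the CD3, TRAC and TRBC differences stay within 0.66 of 0.

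The other subsets differed less. In CD8 cells 28.4% of genes passed, 13.8% as higher, and 4 of the 10 genes did, CD3G (0.27 ± 0.07) and CD3D (0.23 ± 0.09) besides the gamma genes. Neither CD3G nor CD3D passed edgeR in reaction 1 alone (adjusted p = 0.19 and 0.70) or after thinning to 1000 UMIs (0.17 and 0.076), and CD3D did not pass without the mouse block (0.11). In CXCL13 cells 28.6% of genes passed, 13.1% as lower, and 4 of the 10 were lower, CD3E by 0.59 on the log2 scale (SE 0.12), TRBC2 by 0.46 (SE 0.15), CD3D by 0.40 (SE 0.11) and CD3G by 0.36 (SE 0.09). None of these 4 passed edgeR in reaction 1 alone (adjusted p of 0.28 to 0.78). After thinning CD3E and CD3D passed, but TRBC2 (0.11) and CD3G (0.17) did not, and TRBC2 did not pass without the mouse block (0.27). Of the CXCL13 barcodes 46.0% in reaction 1 and 18.4% in reaction 2 were hashtag doublets, against 28.4% and 24.0% of regulatory T and 16.8% and 11.5% of CD8 barcodes, and called doublets did not enter the test. In TCF7 or LEF1 cells 23.2% of genes passed and 2 of the 10 did, CD3D at -0.29 ± 0.10 and TRDC at 1.70 ± 0.46. CD3D lost the edgeR call there in reaction 1 alone (adjusted p = 0.45), after thinning (0.16) and without the mouse block (0.066). In cells with no subset gene 16.1% of genes passed and none of the 10 did by edgeR, with 0 of them under an unadjusted p of 0.05.

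For TRDC in the TCF7 or LEF1 cells the mice ranged from 0 to 289 CPM with a median of 17.3 CPM, and in regulatory T cells from 0 to 132 CPM with a median of 3.8 CPM. It was higher in the TCF7 or LEF1 cells in 7 of 10 mice against regulatory T cells and in 6 of 9 against CD8 cells, and the ranges overlapped. The level by reaction was 156 and 24.9 CPM, beside 94.0 and 11.4 CPM in B-like cells. Without the mouse block the edgeR test did not pass (adjusted p = 0.13), nor did it in reaction 1 alone (adjusted p = 0.21). Among all T-like singlets 52 of 975 in reaction 1 and 23 of 2224 in reaction 2 held 2 or more TRDC UMIs. Of these 21 and 7 held no TRAC UMI, 4 and 1 held a TRDV UMI, and 12 and 3 held a UMI of the NK genes, and in reaction 1 20 of the 52 came from 1 mouse.

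The signaling genes beside the receptor also differed by subset, for 44 of 48 tested. In regulatory T cells 22 were higher and 13 lower, beside 18.7% and 18.2% of all genes. The largest were CD8A (3.47 ± 0.59) and CD8B (2.95 ± 0.58), which the gates remove from 3 of the other subsets, and CD40LG (-2.86 ± 0.35), the ligand by which helper T cells activate B cells, and TRAT1 (-2.53 ± 0.20), an adaptor that stabilizes the CD3 complex. In CD8 cells, where 13.8% of all genes were higher and 14.6% lower, 12 were higher and 12 lower, led outside CD8A and CD8B, which set the gate, by CD40LG (-2.54 ± 0.36) and CD4 (-2.49 ± 0.15). In CXCL13 cells, where 15.6% of all genes were higher and 13.1% lower, 6 were higher and 17 lower. The gate removes CD8A and CD8B from these cells, so their direction was set beforehand. Outside these genes the list was led by TXK (-2.20 ± 0.68), CD28 (-1.79 ± 0.22), the adaptor GRAP2 (-1.65 ± 0.26) and CD40LG (1.598 ± 0.32). In TCF7 or LEF1 cells 17 were higher and 10 lower, beside 12.9% and 10.4% of all genes. In cells with no subset gene 11 were higher and 3 lower, beside 9.58% and 6.51%. The gates remove CD8A and CD8B from both of these subsets too, so the counts of lower genes were partly set beforehand. The medians of the list were 0.21, 0.08, -0.33, 0.10 and 0.08 in these 5 comparisons in that order, and those over all genes stayed between -0.02 and 0.02.

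Maraviroc was not associated with a change of these genes that the test could detect. In T-like cells (7 treated and 6 untreated mice) none of the 10 genes, and 0.0% of the 10472 genes tested, passed edgeR's test. By unadjusted p under 0.05 the count was 456 of all genes (4.35%) and 0 of the 10, and DESeq2 called 1 gene (0.00955%), which was none of the 10. In NK-like cells (7 against 7) 0 of 9 tested, and 0.0% of 6574 genes, passed, with 183 (2.78%) and 0 at an unadjusted p under 0.05 and 0 by DESeq2.

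CD3D in T-like cells had a median of 936 CPM in untreated mice (514 to 995) and 858 CPM in treated mice (766 to 1030), a log2 difference of 0.01 (95% interval -0.28 to 0.30, 1.96 standard errors to each side). CD3E had 317 CPM (89.0 to 361) and 302 CPM (284 to 376), with 0.08 (-0.27 to 0.44), and TRAC 587 CPM (247 to 748) and 564 CPM (449 to 596), with -0.05 (-0.41 to 0.30). The treated and untreated mice overlapped for each of these genes. The differences furthest from 0 in T-like cells were those of the beta genes, TRBC1 at -0.39 (-0.97 to 0.18) and TRBC2 at 0.30 (-0.05 to 0.64). Within reactions 1 and 2 these were -0.20 and -0.55 for TRBC1 and 0.34 and 0.38 for TRBC2, and none passed.

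TRBC1 ranged from 148 to 1185 CPM in untreated and from 399 to 845 CPM in treated mice, and TRBC2 from 307 to 653 CPM and from 377 to 665 CPM. In NK-like cells CD3E had a median of 250 CPM (212 to 284) in untreated and 210 CPM (172 to 267) in treated mice, a log2 difference of -0.24 (-0.49 to 0.01), adjusted p = 0.9998 by edgeR. TRDC in NK-like cells had 774 CPM (565 to 896) and 724 CPM (644 to 845), with -0.03 (-0.27 to 0.22). Of the other signaling genes 45 were tested in T-like and 36 in NK-like cells, and none passed by edgeR, with 5 and 3 at an unadjusted p under 0.05.

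**Figure D5:**
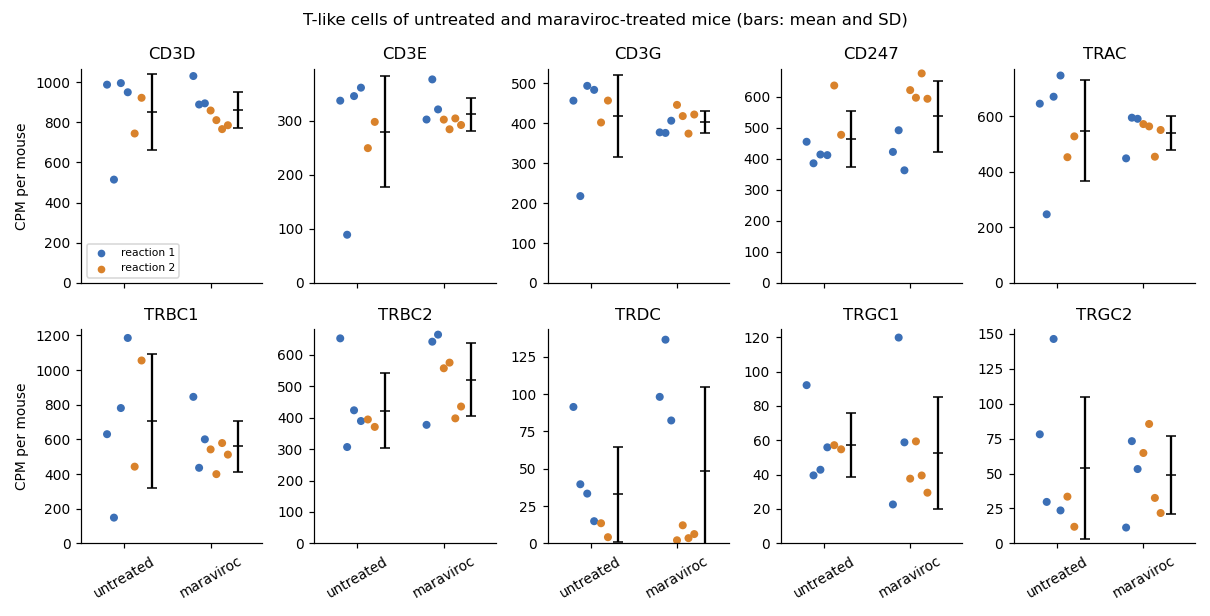
CPM of each gene in T-like hashtag singlets (y axis, from 0), 1 point per mouse colored by reaction, for 6 untreated and 7 maraviroc-treated mice, with the mean and SD as bars, cut at 0 for TRDC. The 2 groups overlap for all 10 genes; the lowest CD3E point, 89.0 CPM, is the untreated mouse with 16 T-like cells.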

How the data were processed

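Human CD45+ cells were profiled with the Chromium 3′ v3.1 kit. The authors deposited unnormalized UMI counts for genes and hashtags, which per the labels' processing notes came from Cell Ranger 9.0.1 and GRCh38. Barcodes with more than 600 and at most 6000 genes and under 1 in 8 mitochondrial UMIs were kept. Hashtags were called with HTODemux (Seurat 5.3.0, quantile 0.99) and only singlets entered values by mouse; no other doublet caller was run. Cells were clustered with scanpy 1.11.5 (2000 variable genes, 30 components, resolution 0.8) after 238 T cell receptor segment and CD3 genes had been left out, and named from marker lists with a score of at least 0.5. These limits, the members and the lists were chosen with earlier results of these data known. Counts were summed per mouse and class (at least 10 cells) and tested with edgeR 4.0.16 (filterByExpr, TMM, quasi-likelihood), DESeq2 1.42.0 being an alternative; both were tested on simulated data. CPM are UMIs per 1000000 UMIs of the class. Named were the 10 genes, counts and up to 4 largest differences of the 48 signaling genes, 6 receptors and adaptors of NK cells, sums of variable genes, and the 5 genes most like CD3 or TRDC. Mice are the replicates; libraries are 1 per reaction.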

Additional observations from a re-analysis of the deposited data

Results flagged for a closer look

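Of 40 groups of 6 or 7 mice (each gene in T-like or NK-like cells of 1 treatment arm), 10 had a highest or lowest mouse that stood apart from the rest by Dixon's criterion, where chance flags about 1 group in 20. In T-like cells of untreated mice these were CD247 at 637 CPM in reaction 2 untreated mouse 1, CD3G at 218 CPM in reaction 1 untreated mouse 2, which had 16 T-like cells, and TRBC2 at 653 CPM and TRGC1 at 92.1 CPM in reaction 1 untreated mouse 1. In T-like cells of treated mice they were CD3E at 376 CPM and TRGC1 at 120 CPM, both in reaction 1 maraviroc mouse 2. In NK-like cells CD3G at 136 CPM, TRAC at 205 CPM and TRBC1 at 372 CPM were high in the same sample, reaction 1 untreated mouse 3 with 48 NK-like cells, and CD3G at 71.2 CPM was high in reaction 1 maraviroc mouse 3. The part of T cell RNA or T cells in these NK-like samples was not tested. A difference between reactions in the effect of maraviroc passed edgeR's interaction test for none of the 10 genes (lowest adjusted p = 0.9998).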

How the results depend on the processing

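The number of the 10 genes called between T-like and NK-like cells was 9 and stayed between 8 and 10 under 11 alternatives, and that between NK-like and myeloid cells was 9 and stayed between 8 and 10 under 10. Without the replicate block for the mouse the counts were 9, 9 and, between T-like subsets, 14 in place of 18; the mouse pairs the classes because they come from the same animal. The subset count fell to 9 in reaction 1 alone and to 6 of 35 tested when cells were thinned to 1000 UMIs. There fewer UMIs remain, and the gates were applied again to the thinned counts, so cells could change subset. Of the differences called by edgeR, none changed direction, but 11 lost the call in reaction 1 alone, 7 after thinning and 4 without the block. TRGC1, TRGC2 and TRDC did not enter the thinned test, so their calls between subsets could not be checked at that depth. The treatment count stayed at 0 under 7 alternatives. The difference in TRBC1-alone share between treated and untreated mice turned to 0.0165 percentage points with at least 1 UMI of the pair. The CD8 difference in that share turned to -0.584 with at least 1 UMI and -0.299 in reaction 1 alone, and that of TCF7 or LEF1 cells to 12.4 in reaction 1 alone. With at least 1 UMI, regulatory T cells (-6.37, adjusted p = 0.0249) and cells with no subset gene (10.7, adjusted p = 0.0249) passed the exact permutation test, at a setting where the share moves with depth. The share of NK-like cells with TRDC was 86.3% and 94.2% without thinning and 70.9% and 73.4% at 2000 UMIs, and that with CD3E 66.6% and 75.0% and 37.8% and 32.4%. The mouse with 16 T-like cells was left out as an alternative chosen after seeing the data. Depth limits TRGC2 and TRDC in T-like subsets, where up to 4 mice had no UMI.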
